A study of Mus musculus with 79 samples.

Results

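The comparison described here was between nuclei of vasoactive intestinal peptide (VIP) interneurons that carried an adeno-associated virus (AAV) with a mutant potassium channel and VIP nuclei of injected cortex sorted as not carrying it. The 9 libraries labelled as mutant, VIP and transduced were set against the 9 labelled as mutant, VIP and non-transduced, which makes 18 of the 79 libraries of the series, and all genes were considered. The series asked how far the activity that remains in the dark-housed visual cortex shapes expression, and silenced neurons with Kir2.1, an inwardly rectifying potassium channel. The mutant vector served there as the counterpart of the working channel, so the comparison shows what goes with carrying the vector and its cargo. All mice were heterozygous for 2 knock-in alleles, INTACT wt/ki and VIP Cre wt/ki: Cre recombinase is made in VIP neurons and switches on the INTACT tag on their nuclei, by which the nuclei can be sorted. The vector was an AAV labelled Syn1-Kir2.1(Mutant)-2a-mScarlet-KASH, in which the neuronal Syn1 promoter drives the mutant channel and a red fluorescent tag, mScarlet-KASH, whose KASH peptide holds it in the nuclear envelope. The labels give neither the mutation nor the AAV serotype.

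Mice were injected in the visual cortex at postnatal day 55 to 60 and moved to the dark 3 days later for 10 to 12 days. Every library was labelled with 10 days of dark housing. Each library was made from a pool of 50 to 100 sorted nuclei with 17 cycles of PCR, so a value is the level in the pool and not in single cells. Beside these 18 libraries, 10 transduced and 10 non-transduced VIP libraries with working Kir2.1 (a vector labelled alike but for the mutation) and 3 VIP libraries of mice without AAV were used, all from the same genotype and the same label of dark housing.

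VIP interneurons are GABAergic cells of the cortex that mainly inhibit other interneurons and so release pyramidal cells from inhibition. AAV genomes remain outside the chromosomes, and a nucleus that carries them transcribes the cargo beside its own genes. Neurons normally keep low levels of major histocompatibility complex (MHC) class I, the proteins that present peptides to T cells, and interferon or NF-kappaB signalling can raise class I genes in many cell types. Kir2.1 pulls the membrane towards rest and makes a neuron harder to excite. Genes whose transcription follows activity, such as immediate early genes and several neuropeptide genes, fall when neurons are silenced.

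Total counts ran from 3530952 to 7010209 in transduced libraries (median 4909934) and from 4392848 to 8252237 in non-transduced ones (median 6343543). Transduced libraries were thus less deep (two-sided exact permutation test over 9 and 9 libraries, p = 0.0486), whereas the number of genes detected gave p = 0.687 and the share of mitochondrial reads p = 0.465. VIP marker genes summed to 20659 to 23560 CPM (counts scaled to library size, with TMM factors) in transduced and 18260 to 24280 CPM in non-transduced libraries. The medians of these sums were 22318 and 19931 CPM, and the same permutation test gave p = 0.0943. Both mutant libraries numbered 1 stood farthest from their group's median profile (correlations of 0.897 when transduced and 0.901 when not). Vip itself was at 729.7 CPM in that transduced library and at 782 CPM in that non-transduced one. Leaving out this pair left the number of genes past the threshold at 2. The labelled sex went against the RNA in 10 of the 18 libraries, by the X-inactivation transcript Xist and the Y-linked gene Ddx3y: 6 libraries labelled male had Xist and 4 labelled female had Ddx3y. Labelled sex was therefore used only in alternatives to the main test, and since no label names the animal behind a library, a p-value reflects only how much these libraries vary.

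Kcnj2, the gene of the vector's channel, and Syne2, the gene of a KASH protein, rose in nuclei with the mutant vector. No other gene passed the threshold in the main test. Of 21207 genes tested, 2 were higher in transduced nuclei (0.00943%) and 0 were lower, by edgeR's quasi-likelihood test with Benjamini-Hochberg adjustment at 0.05. At an unadjusted p under 0.05, 528 genes were higher (2.49%) and 582 lower (2.74%), 5.23% in all. DESeq2 called 3 genes, 2 higher and 1 lower. With the replicate number of the titles, which no label ties to an animal, as a block, edgeR called 5, 4 higher and 1 lower. For the 10699 genes at 10 CPM or more, the median 95% interval of the log2 fold change reached 0.58 to either side.

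Kcnj2 (ENSMUSG00000041695, GRCm38 chromosome 11, 111066164 to 111076821, plus strand) encodes Kir2.1. Its levels in mutant transduced libraries had a lowest value of 279, a median of 814 and a highest value of 1189.5 CPM, against 11.6, 21.8 and 34.6 CPM in non-transduced libraries and 0, 5.58 and 15.3 CPM in the 3 libraries without AAV. Every transduced library lay above every non-transduced one. This is a log2 fold change of 5.09 ± 0.41 (SE; 95% interval 4.27 to 5.91; adjusted p = 7.19e-13). With working Kir2.1 it was 5.27, and the difference between the vectors was -0.18 with an interval of -1.13 to 0.78. By gene count, transcripts of the vector and of the mouse's own Kcnj2 cannot be told apart.

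Syne2 (ENSMUSG00000063450, chromosome 12, 75818134 to 76110926, plus strand) encodes nesprin-2, a nuclear envelope protein that ends in a KASH domain. It had a lowest value of 94.2, a median of 118 and a highest value of 252 CPM in transduced libraries, against 3.79, 14.3 and 25.7 CPM in non-transduced ones and 0.822, 3.79 and 29.5 CPM without AAV. Again the mutant groups did not overlap. The log2 fold change was 3.34 ± 0.39 (SE; adjusted p = 2.22e-07) with the mutant and 3.36 with Kir2.1. Which KASH sequence the vector holds is not given in the sources used here, so vector and endogenous reads of Syne2 cannot be told apart.

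Other genes related to the parts of the vector did not pass the test. Syn1 (chromosome X), whose promoter drives the vector, was at 88.5 ± 32.0 CPM in transduced and 86.6 ± 23.97 CPM in non-transduced libraries (SD, n = 9 each; log2 fold change 0.03, interval -0.39 to 0.45). Among 24 genes of KASH proteins, SUN proteins and the nuclear envelope, 23 were tested, Syne2 alone was called, and the median log2 fold change was 0.07, against -0.01 over all genes tested. Sun1, whose product binds KASH domains, was at 96.9 ± 26.9 CPM against 85.8 ± 38.1 CPM (log2 fold change 0.17, adjusted p = 1). Of 15 inward rectifier genes 11 were tested and Kcnj2 was the only call. Kcnj3, a subunit of G protein-gated channels, was at 376 ± 69.0 CPM in transduced and 317 ± 69.8 CPM in non-transduced nuclei (adjusted p = 1). Kcnj11, the pore of ATP-sensitive potassium channels, was at 6.72 ± 3.62 CPM against 1.48 ± 1.61 CPM (log2 fold change 2.17 ± 0.76 SE, adjusted p = 0.498).

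**Figure D1:**
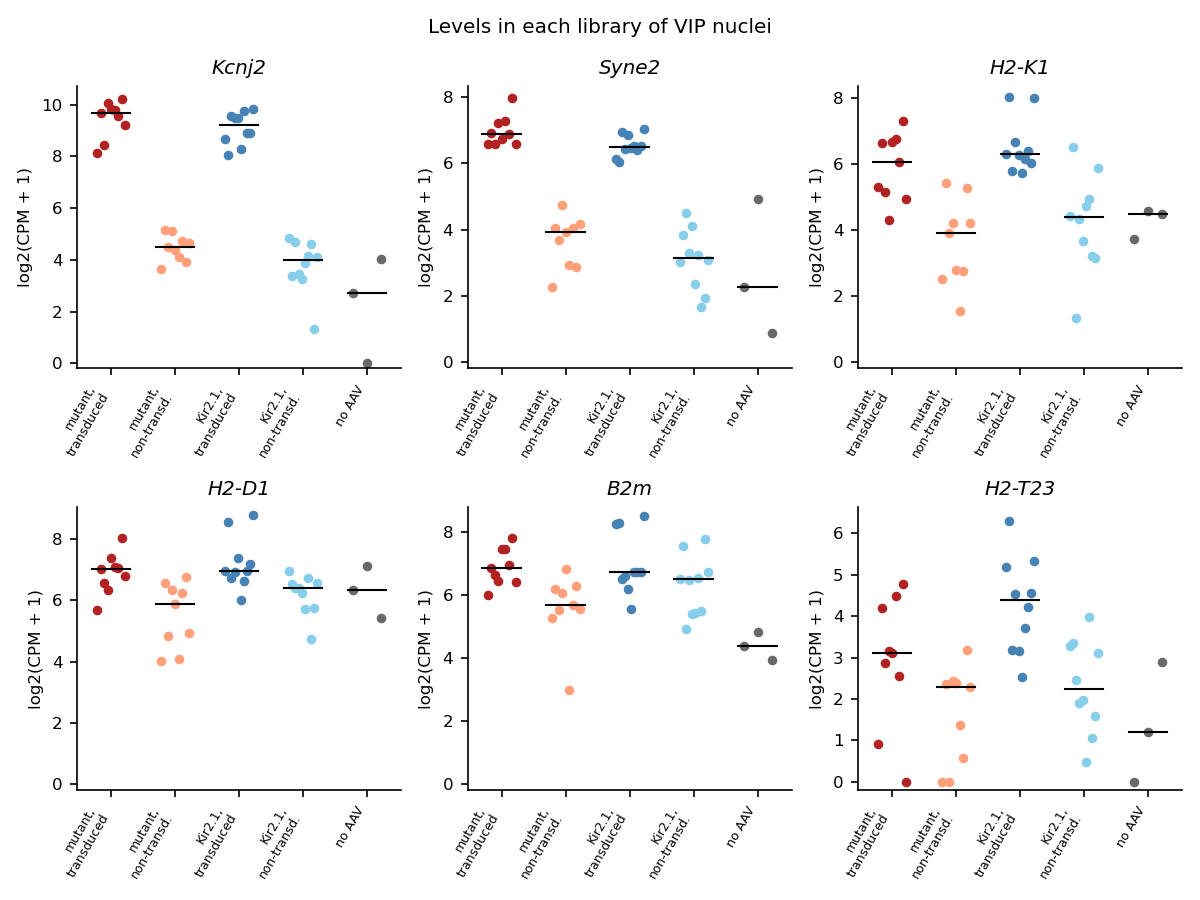
Each point is 1 library, as log2(CPM + 1), for mutant transduced and non-transduced, Kir2.1 transduced and non-transduced, and no-AAV VIP nuclei, with a bar at the group's median. Kcnj2 and Syne2 separate transduced from non-transduced libraries without overlap under both vectors, whereas H2-K1, H2-D1, B2m and H2-T23 have higher medians in mutant transduced libraries but overlap.

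MHC class I genes were the next group in size. The 3 class I chains with the highest levels were H2-K1 and H2-D1, which encode heavy chains, and B2m, which encodes the light chain beta-2-microglobulin. They had log2 fold changes of 2.15, 1.20 and 1.15, and none passed the threshold across all genes in the main test. Their promoters are printed to show what these genes share in sequence, from 250 bases before to 50 bases after the start of each gene (RefSeq, GRCm38.p6). The entries lie at chr17:34000298-34000597 on the minus strand for H2-K1, chr17:35262844-35263143 on the plus strand for H2-D1 and chr2:122147437-122147736 on the plus strand for B2m. Capitals mark 2 motifs, searched on both strands and chosen with these sequences in view: GGGATTCCC and AANNGAAA, which do not overlap here.
H2-K1: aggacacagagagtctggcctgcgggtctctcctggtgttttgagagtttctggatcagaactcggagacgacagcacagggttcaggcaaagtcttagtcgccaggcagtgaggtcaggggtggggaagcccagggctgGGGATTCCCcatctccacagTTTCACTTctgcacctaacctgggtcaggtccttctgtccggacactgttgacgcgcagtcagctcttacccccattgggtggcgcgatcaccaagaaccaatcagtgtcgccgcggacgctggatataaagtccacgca
H2-D1: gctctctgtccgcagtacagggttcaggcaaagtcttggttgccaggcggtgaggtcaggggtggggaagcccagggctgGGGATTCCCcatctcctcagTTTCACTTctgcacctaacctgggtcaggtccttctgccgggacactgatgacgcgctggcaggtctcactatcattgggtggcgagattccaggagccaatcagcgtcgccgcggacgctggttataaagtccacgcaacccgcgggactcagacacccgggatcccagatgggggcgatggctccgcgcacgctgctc
B2m: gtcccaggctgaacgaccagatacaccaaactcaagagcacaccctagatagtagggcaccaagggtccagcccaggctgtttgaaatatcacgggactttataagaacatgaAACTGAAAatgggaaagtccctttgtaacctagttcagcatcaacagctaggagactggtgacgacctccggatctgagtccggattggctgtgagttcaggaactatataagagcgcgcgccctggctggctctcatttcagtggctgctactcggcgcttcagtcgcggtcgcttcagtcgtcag
H2-K1 and H2-D1 both held GGGATTCCC, the core of the site for NF-kappaB proteins known from mouse class I promoters, beginning 110 and 170 bases before the start of the RefSeq entry. For H2-D1 that start lies 364 bases inside the gene as GENCODE places it, so the printed window lies within the GENCODE gene, while the starts coincide for H2-K1 and differ by 1 base for B2m. Both also held AANNGAAA, the core recognised by interferon regulatory factors, on the other strand as TTTCACTT, 90 and 150 bases before the start. B2m held AANNGAAA as AACTGAAA, 137 bases before the start. It held no GGGATTCCC, but only that exact string was searched, so other forms of the NF-kappaB site would go unmarked. Of 32851 promoters of this length, 116 (0.353%) held GGGATTCCC and 7857 (23.9%) held AANNGAAA. A match describes the letters and says nothing of binding in these nuclei. H2-K1 has 2 entries in the promoter table, of which the first is shown.

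H2-K1 (ENSMUSG00000061232, chromosome 17, 33996017 to 34000347, minus strand) was at 38.1, 99.3, 34.7, 18.5, 100.0, 108, 65.7, 157 and 29.8 CPM in mutant transduced libraries 1 to 9. Non-transduced libraries 1 to 9 had 4.74, 41.7, 14.1, 17.5, 5.88, 1.91, 5.76, 37.4 and 17.5 CPM. The groups overlapped: 5 of 9 transduced libraries lay above every non-transduced one. The 3 libraries without AAV were at 12.4, 21.4 and 22.6 CPM. The log2 fold change was 2.15 ± 0.50 (SE; interval 1.14 to 3.16), and with an unadjusted p of 7.97e-05 the adjusted p was 0.422. Leaving out each of the 18 libraries in turn gave 1.92 to 2.47, with adjusted p from 0.140 to 0.582.

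H2-D1 (chromosome 17, 35262730 to 35267499, plus strand) had a lowest value of 50.9, a median of 128 and a highest value of 260.1 CPM in transduced libraries, against 15.4, 58.2 and 109 CPM in non-transduced ones. The log2 fold change was 1.20 ± 0.35 (SE; interval 0.51 to 1.89; adjusted p = 0.438), and 6 of 9 transduced libraries lay above every non-transduced one. In edgeR with the replicate number as a block, H2-D1 passed (1.38, adjusted p = 0.0267) and H2-K1 did not (adjusted p = 0.0592). B2m (chromosome 2, 122147686 to 122153083, plus strand) had 63.5, 116 and 222 CPM in transduced libraries, against 6.86, 50.0 and 111 CPM in non-transduced ones and 14.1, 19.7 and 27.1 CPM without AAV. Its log2 fold change was 1.15 ± 0.37 (SE; adjusted p = 0.449). B2m of non-transduced nuclei in injected cortex thus lay in part above the no-AAV libraries, a difference of injection that was not tested here. H2-T23, a non-classical class I gene that encodes Qa-1, had a median of 7.70 CPM in transduced and 3.85 CPM in non-transduced libraries (log2 fold change 1.78 ± 0.73 SE, adjusted p = 0.659). Nlrc5, the transcriptional activator of class I genes, had a median of 0 CPM in both groups and reached 9.64 CPM in transduced and 1.91 CPM in non-transduced libraries.

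Of 29 genes in the list of class I and antigen presentation, 26 were tested and 0 passed the threshold. At an unadjusted p under 0.05, 6 were higher and 0 lower, beside 2.49% and 2.74% of all genes. The log2 fold change was above 0 for 19 of the 26, against 10374 of all 21207 genes, and the median was 0.73. The examples of peptide loading genes given here did not share these sizes. Pdia3 had a median of 155 CPM in transduced and 133 CPM in non-transduced libraries, and Calr of 126 and 150 CPM. The ratio of the group means, transduced over non-transduced, was 1.26 for Pdia3 and 1.02 for Calr. Tapbp (tapasin) had a log2 fold change of -0.18 and Canx, a chaperone of new class I chains, of -0.02, both with adjusted p = 1. Counting may split reads among close class I paralogs, so the share of each gene is uncertain.

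**Figure D2:**
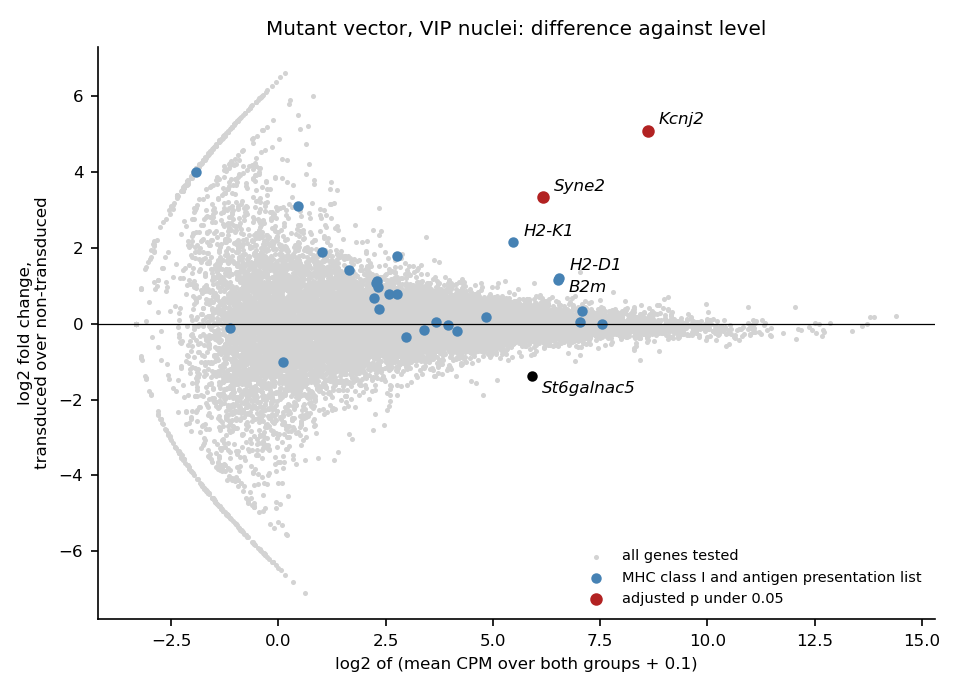
Each point is 1 of the genes tested in mutant VIP nuclei, with the log2 of the mean CPM over both groups plus 0.1 on the x axis and the log2 fold change of transduced over non-transduced on the y axis. Kcnj2 and Syne2 (red) stand far above the other genes at their level, H2-K1, H2-D1 and B2m (blue) lie at the upper edge, and St6galnac5 (black) at the lower edge.

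Class I genes were also compared under the working channel. With Kir2.1, H2-K1 had 110 ± 80.0 CPM in transduced and 27.2 ± 27.2 CPM in non-transduced libraries (SD, n = 10 each; log2 fold change 2.03, adjusted p = 0.0186), and H2-D1 a log2 fold change of 1.17 (adjusted p = 0.0752). Mutant and Kir2.1 effects differed by 0.12 for H2-K1 and 0.04 for H2-D1 (adjusted p = 1 for each), with 95% intervals of the difference that reached from -1.20 to 1.45 and from -0.90 to 0.98. A test of the mean of both effects, over 19 transduced and 19 non-transduced libraries and added after the values had been seen, called 121 genes (0.571%), 34 higher (0.160%) and 87 lower (0.410%), with 654 called without a filter on low counts and 79 without mutant transduced library 8. Among them were 4 of the 26 class I genes, all higher: H2-K1 (2.09 ± 0.34 SE, adjusted p = 0.000422), H2-D1 (1.183 ± 0.24, adjusted p = 0.00713), H2-T23 (1.99 ± 0.50, adjusted p = 0.0437) and H2-Q4. H2-Q4 had 11 counts in all in the mutant transduced libraries and 0 in non-transduced ones, too few for a fold. H2-T23 lost the call, with adjusted p from 0.0510 to 0.0894, when mutant transduced library 2, 3, 5, 6 or 8 or mutant non-transduced library 1, 2, 3, 4, 6, 7 or 9 was left out. H2-K1 and H2-D1 kept it with each of the 18 mutant libraries left out (highest adjusted p 0.00112 and 0.0175). No Kir2.1 library was left out. Kir2.1 transduced libraries 2 and 10 had 261 and 258 CPM of H2-K1 (group median 77.3 CPM) and 377 and 446 CPM of H2-D1 (group median 123 CPM).

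Interferon-stimulated genes held no call. Of 40, 33 were tested. At an unadjusted p under 0.05, 2 were higher and 2 lower, beside 2.49% and 2.74% of all genes. The median log2 fold change of the 33 was 0.51, with 25 above 0, against 10374 of all 21207 genes. Stat2, which carries the interferon signal to the nucleus, was at 24.3 ± 7.73 CPM in transduced and 17.1 ± 8.30 CPM in non-transduced nuclei (adjusted p = 1). Classical targets were near 0: Isg20 was at 0 CPM in all transduced libraries and 0.518 CPM on average in non-transduced ones, and Rsad2 at 0 and 0.677 CPM. Of 26 sensors of foreign nucleic acid and their signalling genes, 23 were tested, with 0 past the threshold, 0 at an unadjusted p under 0.05 by edgeR and a median of -0.04. Tbk1, a kinase that relays these sensors, was at 54.2 ± 12.6 CPM against 50.0 ± 14.6 CPM (adjusted p = 1).

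Markers of immune cells were present at low levels in both groups. The 16 microglia and myeloid markers, all tested and none called, summed to 140 to 254 CPM in transduced and 118 to 267 CPM in non-transduced libraries. Cx3cr1, a microglial receptor, was at 55.8 ± 16.1 CPM against 43.8 ± 13.6 CPM. The 22 markers of T cells, B cells and plasma cells summed to 32.8 to 286 CPM in transduced and 30.9 to 200 CPM in non-transduced libraries, with Gzma, Gzmb, Cd79b and Ms4a1 at 0 in all 18. Igkc, an immunoglobulin light chain gene, was at 10.5 to 98.5 CPM in transduced and 8.34 to 69.1 CPM in non-transduced libraries, against 0, 0 and 0.822 CPM without AAV. The ranges of the summed markers overlap between transduced and non-transduced libraries, and their part in the class I values was not tested. In such pools, fewer cells of a type and less RNA per cell cannot be told apart.

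Transduction with the working channel changed 163 genes (0.769%), 36 higher (0.170%) and 127 lower (0.599%), and these were examined in the mutant libraries, which are on neither side of that contrast but share its fit, filter and estimate of the spread. Of the 163, 93 had the same direction with the mutant (57.1%, beside 50.5% of all genes tested), 16 of them at an unadjusted p under 0.05. Another 12 had the opposite direction at that p. The 93 include Kcnj2 and Syne2, and leaving these out, 91 of 161 had the same direction (56.5%). The 163 had a median size of 1.36 on the log2 scale with Kir2.1. Their median log2 fold change with the mutant, taken in the Kir2.1 direction, was 0.05. The difference of the transduction effect between the vectors, mutant minus Kir2.1, passed the threshold for 85 genes, 59 with the higher effect in the mutant (0.278%) and 26 with the lower (0.123%). The count was 35 (29 higher and 6 lower) in the 38 libraries of the 2 vectors alone and 719 with no filter on low counts. It was 52 without mutant transduced library 2, 48 without library 4, and 50 and 52 without mutant non-transduced library 3 or 7. Of the 85, 43 were also called with Kir2.1 and 0 with the mutant, where 54 had an unadjusted p under 0.05, beside 5.23% of all genes tested. The 59 had a median log2 fold change of 0.59 with the mutant and -2.77 with Kir2.1, and the 26 had medians of -4.52 and 4.34. Since the 85 were selected by this difference, opposite signs and small mutant p-values follow in part from the selection. Of the 85, 44 averaged under 10 CPM in the mutant libraries, 18 of the 26 among them, and fitted fold changes of such genes depend on the prior count. For the 41 at 10 CPM or more, 13 had an unadjusted p under 0.05 with the mutant, and the mutant effect was smaller in size than the Kir2.1 effect in 40. For the 44 under that level these numbers were 41 and 24.

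The 12 genes with the smallest p of that difference, chosen after the values were seen, fell or rose with Kir2.1 and had mutant effects nearer to 0, which does not describe all 85. Egfr, the epidermal growth factor receptor, was at 473 ± 62.6 CPM in mutant transduced and 470.1 ± 82.1 CPM in mutant non-transduced nuclei (log2 fold change 0.01, interval -0.33 to 0.35), while its Kir2.1 effect was -1.39 (adjusted p = 1.36e-07). Dlx6os1, a long noncoding RNA of the interneuron Dlx locus, likewise had 445 ± 138 CPM against 446 ± 96.1 CPM with the mutant and -1.64 with Kir2.1. Pde10a, a cyclic nucleotide phosphodiesterase, had mutant and Kir2.1 effects of 0.16 and -1.81, Cnmd (chondromodulin) of -0.31 and -4.35, and Mir670hg, a long noncoding host transcript of microRNA genes, of 0.37 and -2.99. Mlip, which encodes a lamin-interacting protein, had 0.43 and -1.49. Trpc6, a cation channel, had 0.50 and -1.29. Fbln2, an extracellular matrix protein, had -0.37 with the mutant and 0.99 with Kir2.1, and Kcnc1, the fast-spiking potassium channel Kv3.1, -0.44 and 1.00. The Kir2.1 effects of these genes passed the threshold and the mutant effects did not.

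**Figure D3:**
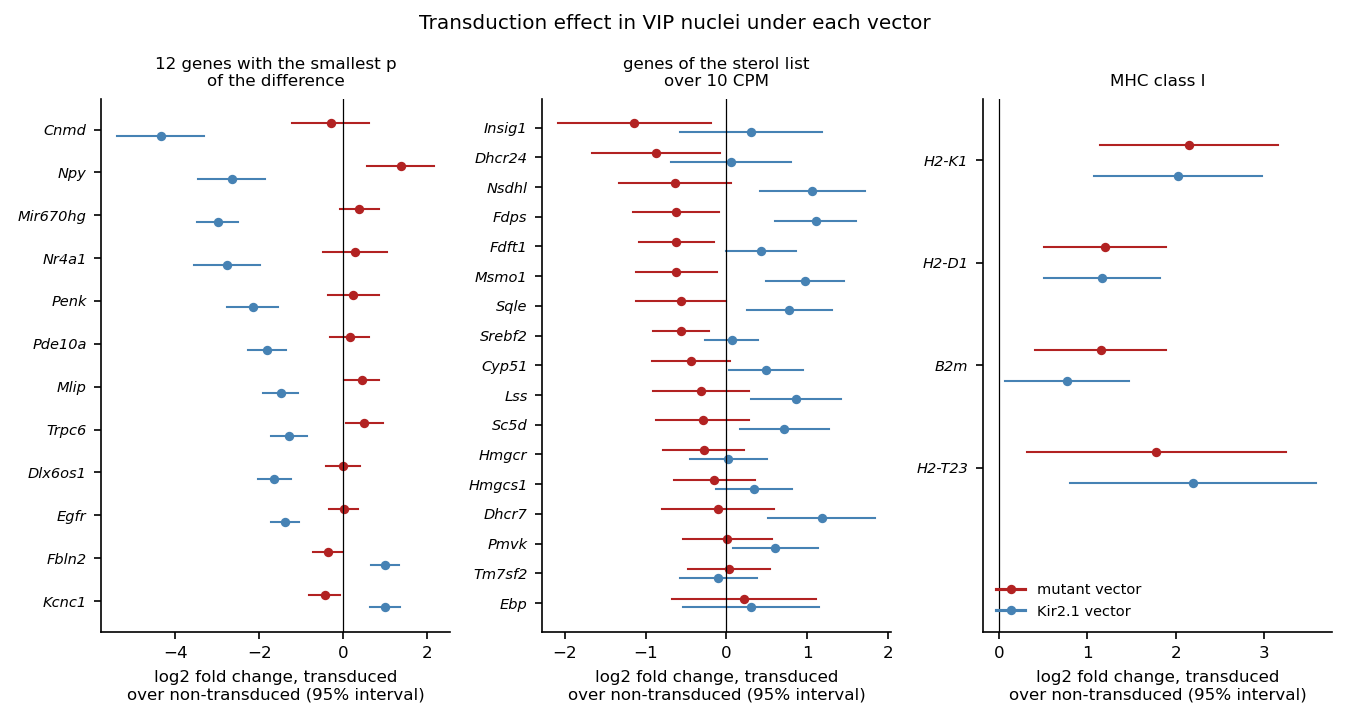
Points are log2 fold changes of transduced over non-transduced VIP nuclei with 95% intervals, red for the mutant and blue for the Kir2.1 vector, for the 12 genes with the smallest p of the difference, for genes of the sterol list that averaged over 10 CPM in the mutant libraries, 1 of which is not shown, and for 4 class I genes. In the first panel mutant intervals cover or lie near 0 where Kir2.1 intervals do not, except for Npy (mutant interval 0.57 to 2.16), and the class I effects of both vectors coincide within their intervals.

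No activity-regulated gene of the lists passed the threshold with the mutant. Of 27 immediate early genes, 22 were tested and 0 passed the threshold. A log2 fold change above 0 was seen for 20 of the 22, against 10374 of all 21207 genes. The median of the 22 was 0.49 with the mutant and -0.92 with Kir2.1. Nr4a1, an orphan nuclear receptor induced by activity, had a lowest value of 15.8, a median of 25.1 and a highest value of 66.1 CPM in mutant transduced libraries, against 10.5, 26.01 and 51.8 CPM in non-transduced ones. The groups overlapped along nearly their whole range (log2 fold change 0.28, interval -0.49 to 1.04). Its Kir2.1 effect was -2.77 (adjusted p = 6.69e-06), and the difference of 3.04 passed the test (adjusted p = 0.00151). Fos, an AP-1 subunit, was at 18.04 ± 10.5 CPM in mutant transduced and 8.58 ± 7.86 CPM in mutant non-transduced nuclei (adjusted p = 1). Its difference from Kir2.1 was 4.70 with adjusted p = 0.0537. Of 28 late activity-regulated genes 25 were tested and 0 passed, with a median of -0.06. Vgf, a secreted granule peptide induced by activity and trophic factors, was at 30.7 ± 14.9 CPM against 24.7 ± 11.5 CPM with the mutant, and its difference of 3.57 from Kir2.1 passed the test (adjusted p = 0.00356).

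Among neuropeptide genes, the transduction effects on Npy, Penk and Vip differed between the vectors. Npy, which encodes neuropeptide Y, had a lowest value of 56.2, a median of 234 and a highest value of 276 CPM in mutant transduced libraries, against 18.03, 63.1 and 130.1 CPM in non-transduced ones. Of the 9 transduced libraries, 6 lay above every non-transduced one, and libraries 1, 7 and 9 lay within their range. Npy's log2 fold change was 1.37 ± 0.40 (SE; adjusted p = 0.438), against -2.65 with Kir2.1 (adjusted p = 1.79e-05), and the difference of 4.02 passed the test (adjusted p = 3.06e-05). The 3 libraries without AAV ranged from 33.0 to 219 CPM. Penk, which encodes proenkephalin, was at 556 ± 280 CPM with the mutant when transduced and 472 ± 229 CPM when not, with a difference of 2.39 from Kir2.1 (adjusted p = 0.00151). Vip was at 4839 ± 2318 CPM against 3595 ± 1743 CPM (log2 fold change 0.43, interval -0.16 to 1.02), and its difference from Kir2.1 was 1.66 (adjusted p = 0.0432). The list of activity-regulated and peptide genes of VIP neurons had 21 tested genes, of which 0 passed with the mutant. Of the 21, 15 were above 0, against 10374 of all 21207 genes. The list's median was 0.31 with the mutant and -0.27 with Kir2.1.

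**Figure D4:**
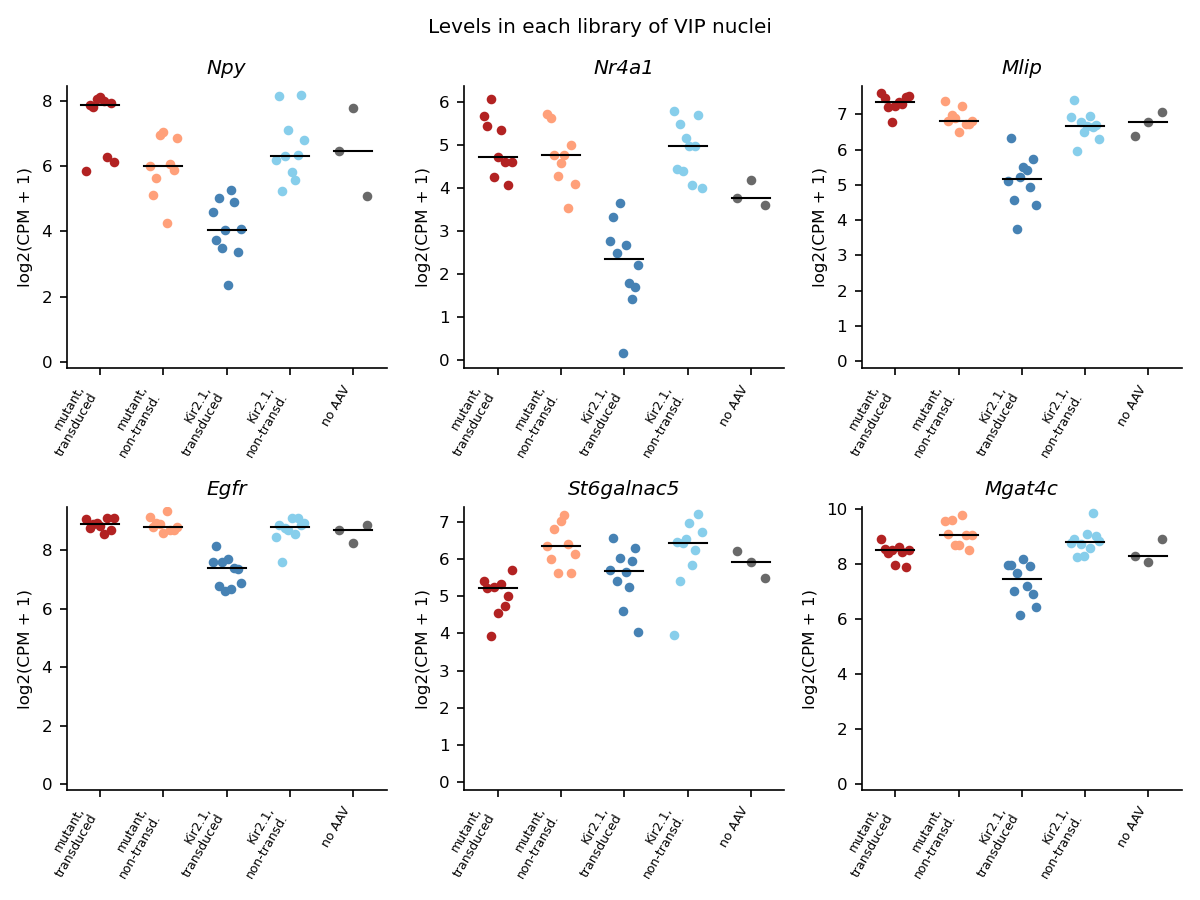
Each point is 1 library, as log2(CPM + 1), in the 5 groups of VIP nuclei, with a bar at the group's median. Npy, Nr4a1, Mlip and Egfr are lower in Kir2.1 transduced libraries and not in mutant transduced ones, and St6galnac5 and Mgat4c have lower medians in transduced libraries under either vector.

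The sterol list had medians of opposite sign under the 2 vectors. All 23 genes of sterol synthesis and uptake were tested, and 0 passed the threshold with the mutant. At an unadjusted p under 0.05, 7 were lower and 0 higher, beside 2.74% and 2.49% of all genes. The 23 had a median log2 fold change of -0.56 with the mutant, and 3 were above 0, against 10374 of all 21207 genes. With Kir2.1 the median was 0.61, with 22 above 0 and 2 past the threshold. Srebf2, the transcription factor that switches these genes on, was at 63.2 ± 16.8 CPM in mutant transduced and 93.1 ± 16.8 CPM in mutant non-transduced nuclei (log2 fold change -0.56 ± 0.17 SE, adjusted p = 0.438). The difference between vectors passed for Fdps, farnesyl diphosphate synthase (-1.73, adjusted p = 0.0166), and for Msmo1, a methylsterol oxidase (-1.59, adjusted p = 0.0262). Fdps was at 18.1 ± 6.97 CPM against 28.1 ± 11.4 CPM with the mutant, and Msmo1 at 57.0 ± 25.3 CPM against 87.7 ± 33.6 CPM.

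Genes of VIP identity were present in both groups. All 20 VIP markers were tested and 0 passed the threshold, with a median of 0.17. At an unadjusted p under 0.05, 3 were higher, beside 2.49% of all genes. Adarb2, a marker of caudally derived interneurons, was at 12160.4 ± 2439 CPM in transduced and 12596 ± 3496 CPM in non-transduced nuclei, and Synpr, a synaptic vesicle protein, at 2219 ± 303 CPM against 2120.5 ± 249.9 CPM. Gad1, which makes GABA, was at 566 ± 127 CPM against 426 ± 109 CPM (log2 fold change 0.41, adjusted p = 0.708). Of 20 excitatory markers, 0 passed, and the median was -0.34. At an unadjusted p under 0.05, 2 were lower, beside 2.74% of all genes. The excitatory markers summed to 818 to 970 CPM in transduced and 836 to 1131 CPM in non-transduced libraries.

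The median mutant effect was lower in long genes than in short ones. Across 10692 genes at 10 CPM or more, Spearman's rho of the log2 fold change with the length of the gene was -0.26 with the mutant and -0.05 with Kir2.1; genes are not independent replicates, and every point rests on the same libraries. The median log2 fold change was 0.10 in the quintile of shortest genes and -0.11 in that of the longest. The 21 nuclear genes of oxidative phosphorylation, with a median length of 9.14 kb, were all above 0 (median log2 fold change 0.32), and so were 24 of 28 cytosolic ribosomal protein genes, with a median length of 4.24 kb (median 0.14). In neither list did edgeR call a gene (0 at an unadjusted p under 0.05 in both). Of all 21207 genes tested, 10374 were above 0. Atp5b, a subunit of ATP synthase, was at 319 ± 136 CPM in transduced and 241 ± 116 CPM in non-transduced nuclei. Above 0 were 7 of 35 potassium channel genes outside the inward rectifiers, with a median length of 194 kb (median log2 fold change -0.16), and 7 of 27 glutamate receptor genes, with 239.6 kb (median -0.21). Of these 0 were called, and 1 in each list was lower at an unadjusted p under 0.05. Kcnip4, an auxiliary protein of A-type channels, was at 5387 ± 1579 CPM against 6352 ± 1581 CPM, and Grik2, a kainate receptor subunit, at 1813 ± 317 CPM against 2230.1 ± 623 CPM. Sterol genes had a median length of 17.9 kb, against 16.9 kb over all genes tested and 31.0 kb over those at 10 CPM or more. Class I genes had 5.49 kb. The part of gene length in the medians of the lists was not tested.

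Stress lists held no gene past the threshold. For p53 and DNA damage, 26 of 28 genes were tested, with 0 at an unadjusted p under 0.05 and a median of 0.10. For the unfolded protein and integrated stress responses all 26 were tested, with 1 lower at that p, Edem1, and a median of 0.23. Hspa5, the chaperone BiP, was at 178 ± 84.2 CPM in transduced and 156 ± 71.9 CPM in non-transduced nuclei. For neuronal injury 17 of 22 were tested and the median was -0.06, and for cell death 19 of 22 with a median of 0.09. The 23 genes of AAV entry and trafficking, all tested, had a median of 0.06 and 0 at an unadjusted p under 0.05.

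**Figure D5:**
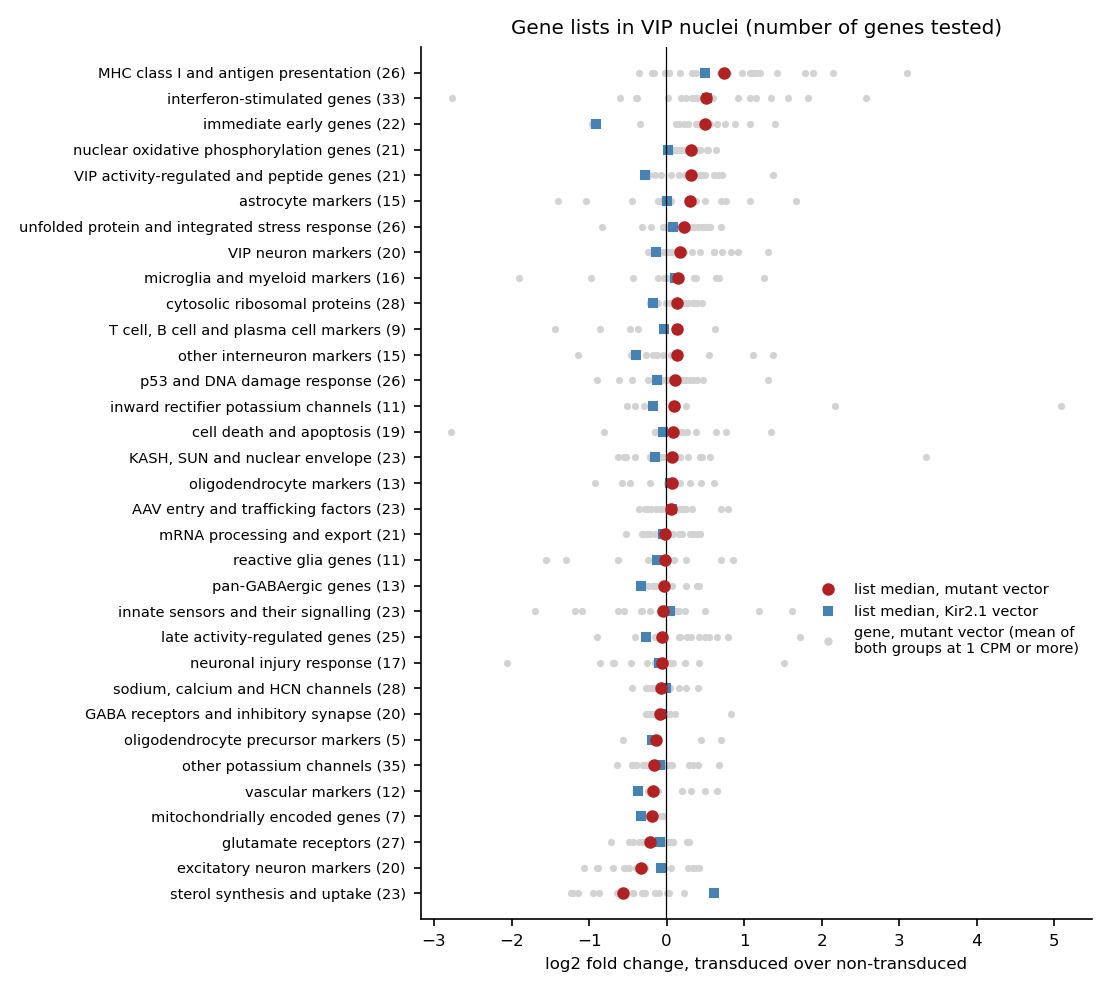
Each row is a gene list with the number of genes tested. Red circles give the median log2 fold change of transduced over non-transduced with the mutant vector and blue squares that with Kir2.1, grey points are single genes with the mutant that averaged 1 CPM or more over both groups, and the vertical line is the median of all genes tested; of the lists drawn, which leave out that of 3 genes for parts of the vector, class I has the highest median with the mutant (0.73) and the sterol list the lowest (-0.56), where Kir2.1 gives 0.61.

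Among genes that did not pass, St6galnac5 (chromosome 3, 152817081 to 152982246, minus strand), a sialyltransferase of ganglioside synthesis, was chosen after its values were seen. It had a lowest value of 14.3, a median of 36.5 and a highest value of 51.4 CPM in mutant transduced libraries, against 48.5, 80.6 and 143 CPM in non-transduced ones. Of the 9 transduced libraries, 8 lay below every non-transduced one. St6galnac5 had a log2 fold change of -1.38 ± 0.30 (SE; interval -1.98 to -0.78; adjusted p = 0.188). The adjusted p was 0.0310 when the 18 mutant libraries were fitted alone and 0.0428 with DESeq2, and it ran from 0.0310 to 1.00 over 28 alternatives without a block on replicate number, with log2 fold changes of -1.93 to -0.88. With Kir2.1 the effect was -0.69 (adjusted p = 0.304), and the mean of both effects passed (-1.03, adjusted p = 0.00562).

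Groups did not overlap for 5 genes, 4 higher in transduced libraries (0.0189%) and 1 lower (0.00472%). Besides Kcnj2 and Syne2 these were Trpm2, a cation channel gated by ADP-ribose, Rnmt, the methyltransferase of the mRNA cap, and Ccnd2, which encodes cyclin D2. Trpm2 ran from 14.3 to 28.7 CPM in transduced and 5.48 to 14.2 CPM in non-transduced libraries (adjusted p = 0.678), and the libraries without AAV, at 14.6 to 30.9 CPM, lay with the transduced ones. Rnmt ran from 44.3 to 90.6 CPM against 28.0 to 42.1 CPM (adjusted p = 0.438), and without AAV from 59.8 to 68.6 CPM. Ccnd2 ran from 50.7 to 89.9 CPM against 90.6 to 134 CPM (log2 fold change -0.60, adjusted p = 0.438). It fell with Kir2.1 (-0.88, adjusted p = 0.00214), and the mean of both effects passed (-0.74, adjusted p = 0.000573).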

How the data were processed

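RNA was counted in 79 libraries of sorted mouse visual cortex nuclei, of which the 18 mutant VIP libraries were compared. Per the labels' protocols, cDNA was primed with oligo-dT, amplified and made into libraries with Nextera XT, a kit that does not mark strand. The authors deposited raw counts per gene, with no normalization (55335 genes). Tools listed in the submitters' processing notes, without role or order, are STAR 2.5.3a, HOMER 4.9.1 and cutadapt 1.18, with the mm10 genome; the annotation and counting settings are not given in the sources used here. Overlapping and antisense genes, and close paralogs, therefore cannot be separated with certainty. Of the gene identifiers, 55154 matched GENCODE vM21 (GRCm38, the assembly that mm10 names) and 181 did not. The protocols describe no molecular identifiers, so PCR copies may be counted.

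Libraries were grouped by their labels. Genes were kept with filterByExpr (minimum count 10, minimum total 15) and tested with edgeR 4.0.16 (TMM, quasi-likelihood F test, two-sided) in R 4.3.3, in 1 fit of 41 VIP libraries that share 1 estimate of the spread, with Benjamini-Hochberg adjustment over all genes tested. SE is the size of the log2 fold change over the square root of F, and intervals are 95%. The difference between vectors was tested as an interaction, and single library measures by exact permutation. Alternatives used DESeq2 1.42.0, limma 3.58.1, other filters, scalings and subsets, a block on replicate number and left-out libraries. Checked on simulated counts, the main test and the test of the difference missed many of the changes put in. Both also called some unchanged genes. The libraries compared, the gene lists and the tests were chosen with earlier results of these data known. Named genes are those past the threshold, Kcnj2, Syne2 and H2-K1, called list members, and up to 3 members of highest level in a list; others are said to be chosen after their values were seen or are given as examples of a list's members. Some list members count in the list totals but are not reported here by name.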

Additional observations from a re-analysis of the deposited data

Results flagged for a closer look

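The transduction effect, mutant minus Kir2.1, differed between the vectors for 12 genes described above, which had the smallest p among the 85 that passed the interaction test. On the log2 scale the difference was 4.04 for Cnmd, 4.02 for Npy, 3.36 for Mir670hg, 3.04 for Nr4a1, 2.39 for Penk, 1.96 for Pde10a, 1.92 for Mlip, 1.79 for Trpc6, 1.63 for Dlx6os1 and 1.40 for Egfr. For Fbln2 it was -1.36 and for Kcnc1 -1.44.

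Single libraries lay far from the other 8 of their group, by Dixon's test at its 95% level, in 5 of 40 groups of values tested, where chance flags about 1 in 20. Mutant transduced library 8 had 252 CPM of Syne2, with the next library at 154 CPM. In transduced library 1, Kit was at 292 CPM (next 562 CPM) and Kcnc1 at 208 CPM (next 118 CPM). Mir670hg was at 193 CPM in transduced library 2 (next 128 CPM), and Fbln2 at 161 CPM in transduced library 3 (next 114 CPM).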

How the results depend on the processing

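Kcnj2 and Syne2 were called under every alternative run. Without a replicate block the count of calls was 2 or 3, and 2 whichever mutant library was left out (range 2 to 2). The labels do not say whether the numbers of the titles pair libraries, and the main test treated libraries as unpaired. By correlation, 5 of 9 same-numbered pairs were over 0.1 (range -0.125 to 0.608). Of transduced and non-transduced libraries, 6 and 5 of 9 correlated best with their own number. All 9 mutant pairs shared the sex seen in RNA, as did all 10 with Kir2.1; the labels name no animals. H2-K1, H2-D1, B2m and Kit were higher in the transduced library of 9 of 9 same-numbered pairs, and St6galnac5 and Mgat4c in 0 of 9. With the number as a replicate block, edgeR called 5 genes: Kcnj2, Syne2, H2-D1 (log2 fold change 1.38, adjusted p = 0.0267) and Kit higher, and Mgat4c lower. Leaving out 1 number at a time in that fit gave 2 to 9. A random effect in limma gave 2 and DESeq2 with the block 141. For H2-K1 the block gave an adjusted p of 0.0592, and for St6galnac5 12 alternatives with the block gave 0.00023 to 0.186. The cause of the larger counts was not tested.

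The difference between vectors was called for 85 genes, 719 with no filter on low counts (more genes of few counts tested), 35 in the 38 libraries of the 2 vectors alone and 81 with the block. Leaving out 1 mutant library at a time gave 48 to 89, and under 57 without transduced library 2 (52) or 4 (48) or non-transduced library 3 (50) or 7 (52). The mean of both effects was called for 121 genes, 654 with no filter and 113 with the block. The count was 79 to 134 with 1 mutant library left out, the 79 without transduced library 8. Labelled sex by transduction called 0 genes in edgeR (376 at an unadjusted p under 0.05; 805 with the block). As the labels went against the RNA in 10 of the 18 libraries, that test cannot decide whether the effect differs by sex. Depth, pools of 50 to 100 nuclei and 9 libraries a group limit which effects could be called.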
